A study of Bos taurus with 27 samples.

Results

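The 100 genes described here are the next most abundant transcripts of elongating cattle embryos after a small set of still more counted ones, limited to genes whose level changed little with embryo size. They were chosen by CPM, a gene's count divided by the total of its library and put on a fixed scale, on which the 4217 CPM of the most counted member are 0.422% of all counts. Genes were ranked by mean CPM over 27 embryos. Left out were 11 listed identifiers, the 16 identifiers numbered ENSBTAG00000043540 to ENSBTAG00000043590, and every gene whose log2(CPM + 1) had a slope of 0.35 or more, in either direction, per doubling of the size number in the embryo's title. The 100 highest of the remaining genes, out of 19994 in the files, are the members. Mean level and size slope thus chose the members and are given as descriptions, without a test.

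The study asked how maternal diet affects embryos on day 15 of pregnancy. Whole embryos of Bos taurus were sequenced with 1 library each. They formed 3 groups: 6 long embryos of dams on an omega-3 diet, 10 short embryos of dams on an omega-3 diet and 11 short embryos of dams on an omega-6 diet. All 27 shared the species, the day and the library method. The titles also hold a size number, whose unit is not stated, and a letter, m in 15 and f in 12 embryos, read here as male and female. No dams and no batches are named, so a p-value here speaks of the spread among single embryos, some of which may share a dam.

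At this stage the cattle embryo has not yet attached to the uterus. Its outer cells, the trophectoderm, lengthen from a sphere to a filament and secrete interferon tau. In animal cells the most abundant messenger RNAs commonly encode proteins that every cell needs in bulk, such as those of the ribosome, translation factors and the cytoskeleton. Which of the members encode such proteins cannot be told here, because the files do not pair identifiers with names and none of the 19994 identifiers was found in the RefSeq gene table used (assembly ARS-UCD2.0). Members are therefore called by their rank in mean CPM, and their roles are not given. Because CPM is not corrected for gene length, ranks compare counts and not numbers of molecules. In these whole embryos, fewer cells of a type and less RNA per cell cannot be told apart.

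Library totals ran from 17931620 to 29868584 counts. The lowest count of any member in any embryo was 6213, where counting error is small. The omega-6 embryos 22 and 25 stood apart from the others in the members, as shown further on, and results that rest on them are given with and without them. Embryo 07, lettered f, went against its letter. It had 926 counts of ENSBTAG00000045750, a gene with at most 4 counts in the other 11 f embryos and at least 10.5 CPM in every m embryo.

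The members together took 17.7% ± 1.26 of all counts (SD, n = 27). By group they took 16.05% to 17.4% in long omega-3 embryos (median 16.6%), 16.9% to 18.5% in short omega-3 embryos (median 17.5%) and 16.7% to 22.4% in short omega-6 embryos (median 18.04%). The 3 ranges overlapped. The highest shares were those of embryos 22 and 25, at 22.4% and 20.3%, and the next highest was 18.7%. Without embryos 22 and 25 the median over the other embryos was 17.4%, as it was with them. The 11 listed identifiers took 15.3% ± 2.08 and the 16 numbered ones 3.14% ± 0.887 (SD, n = 27). The share of the 16 was highest in embryo 25 (5.44%) and next highest in embryo 22 (4.68%), against a median of 2.86%.

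Single members took between 0.0970% and 0.422% of the counts. The most counted member, ENSBTAG00000004258, stood at rank 14 among all genes. It had 3260 to 3766 CPM in long omega-3 embryos (median 3593), 3731 to 5515 CPM in short omega-3 embryos (median 4154) and 3667 to 4921 CPM in short omega-6 embryos (median 4563). Long embryos lay mostly below short ones, with 2 long embryos, 06 and 10, above the lowest short embryos of both diets. Member 2 had 3253 to 3901 CPM in long omega-3, 3605 to 4686 CPM in short omega-3 and 3525 to 6789 CPM in short omega-6 embryos, where the highest value was that of embryo 22. Member 3 ran the other way in that embryo, with 1164 CPM against 2611 to 4877 CPM in the 9 short omega-6 embryos other than 22 and 25.

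The lower end of the selection was not a gap. Member 100 stood at rank 126 among all genes with a mean of 970.5 CPM, and the first gene outside, ENSBTAG00000001777, had 969.3 CPM. Of the 126 most counted genes, 10 belonged to the numbered block, 11 were the listed identifiers and 5 were left out for their slope. The slopes of those 5 were 0.37, 0.93, 0.98, 1.05 and 1.18, all positive, while the steepest members had 0.32 and -0.24. With a slope limit of 0.25 or of 0.5, 99 of the 100 members stayed the same.

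The set was also largely the same from embryo to embryo. Of each embryo's own 126 most counted genes, 79 to 98 were members (median 91). The lowest number was that of embryo 22.

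**Figure D1:**
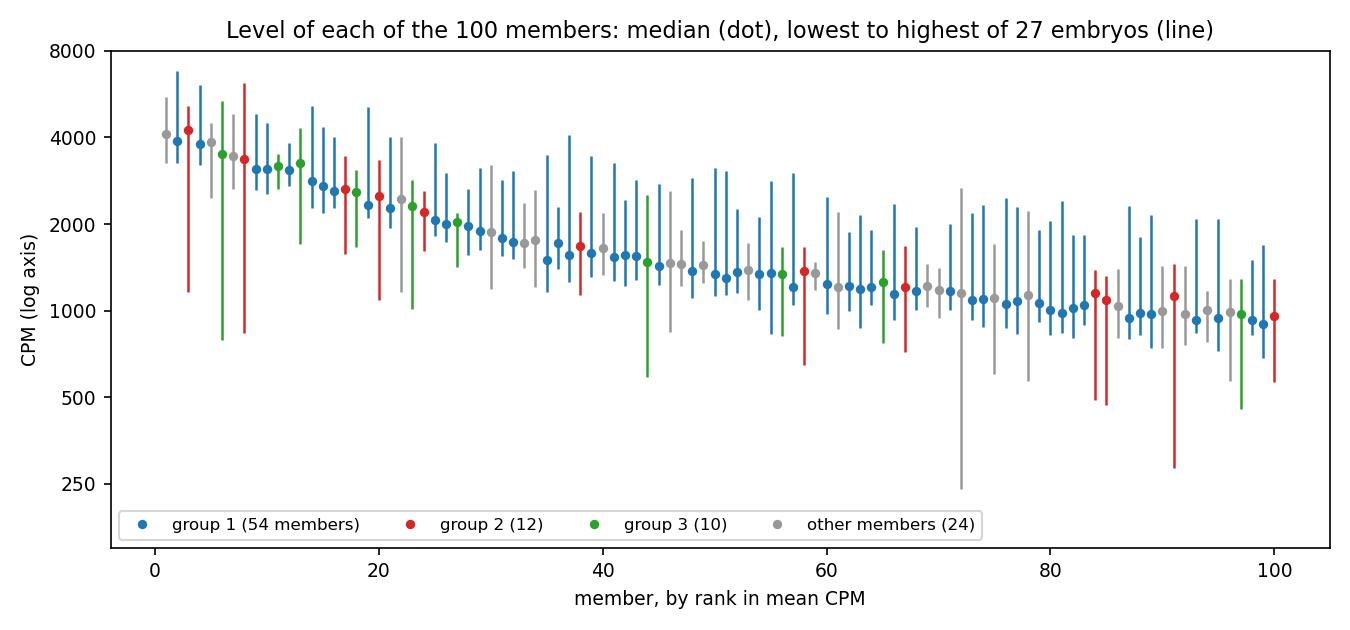
CPM on a log axis for each of the 100 members, ordered by rank in mean CPM. Dots are medians and lines run from the lowest to the highest of 27 embryos. Colours mark the co-varying groups described in the text. Lines of group 1 reach far upward from their median and lines of groups 2 and 3 reach downward, and member 72 has the longest line, from 241 to 2659 CPM.

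Members differed in how steady they were. The SD of log2(CPM + 1) over 27 embryos had a median of 0.25 over the members and of 0.28 over the 11919 genes tested, and it ran from 0.08 to 0.68 within the members. Less counted genes carry more counting error, so a closer comparison is that with the 1728 tested genes of 100 CPM or more, whose median was 0.24. The highest embryo exceeded the lowest by less than 2-fold in 38 members and by 3-fold or more in 13.

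The steadiest member was 59 (ENSBTAG00000015000), with 1179 to 1385 CPM in long omega-3, 1222 to 1479 CPM in short omega-3 and 1264 to 1457 CPM in short omega-6 embryos. Its 3 groups overlapped, with 2 long embryos below every short omega-6 embryo, and its highest value was 1.25 times its lowest. The widest range was that of member 72 (ENSBTAG00000047604). It had 731 to 1741 CPM in long omega-3 (median 1301), 241 to 1988 CPM in short omega-3 (median 1121) and 378 to 2659 CPM in short omega-6 embryos (median 1071). Its lowest value was that of the smallest embryo, 14, and its highest that of embryo 22. Member 8 had 2046 to 3311 CPM in long omega-3, 1861 to 4609 CPM in short omega-3 and 839 to 6196 CPM in short omega-6 embryos. Both its lowest and its highest embryo were thus short omega-6 embryos.

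The slopes left by the selection were shallow and leaned downward. They were negative in 72 members and positive in 28, with a median of -0.09 log2 units per doubling of the size number, beside a median of -0.01 over all 11919 genes tested. In 51 members the slope lay within 0.1 of zero, beside 7426 of the 11919 genes tested. The median size of the slope, whatever its sign, was 0.098 in members and 0.076 over all genes tested. Over all 27 embryos members were thus less flat than the typical gene. Without embryos 22 and 25, 65 members lay within 0.1 of zero and the median size of the slope was 0.079. The values over all genes were not taken again without those embryos, so the contrast may rest on them. The embryos spanned 5.67 doublings. The most negative slopes were those of members 61 (ENSBTAG00000034529) and 99, at -0.24 and -0.16. Member 61 had 861 to 1107 CPM in long omega-3 (median 1025), 1028 to 1796 CPM in short omega-3 (median 1189) and 904 to 2208 CPM in short omega-6 embryos (median 1466). The most positive were those of members 72 and 91, at 0.32 and 0.25. Member 91 had 905 to 1453 CPM in long omega-3, 615 to 1349 CPM in short omega-3 and 284 to 1390 CPM in short omega-6 embryos.

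The direction of these shallow slopes seldom hung on single embryos or on 1 diet. Without the smallest embryo 97 members kept the sign of their slope, and without embryos 22 and 25 it was 93. The slope of member 72 was 0.19 without the smallest embryo. Fitted in the 16 omega-3 embryos alone the slopes had a median of -0.06, with 74 negative, and 94 had the sign found in all embryos. In the 11 omega-6 embryos alone the median was -0.09, with 73 negative, and 93 had that sign. These subsets are parts of the embryos that chose the members. Within omega-6 the limit of 0.35 was reached by 4 members, and the slopes of members 61, 72 and 91 were -0.39, 0.43 and 0.48 there.

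**Figure D2:**
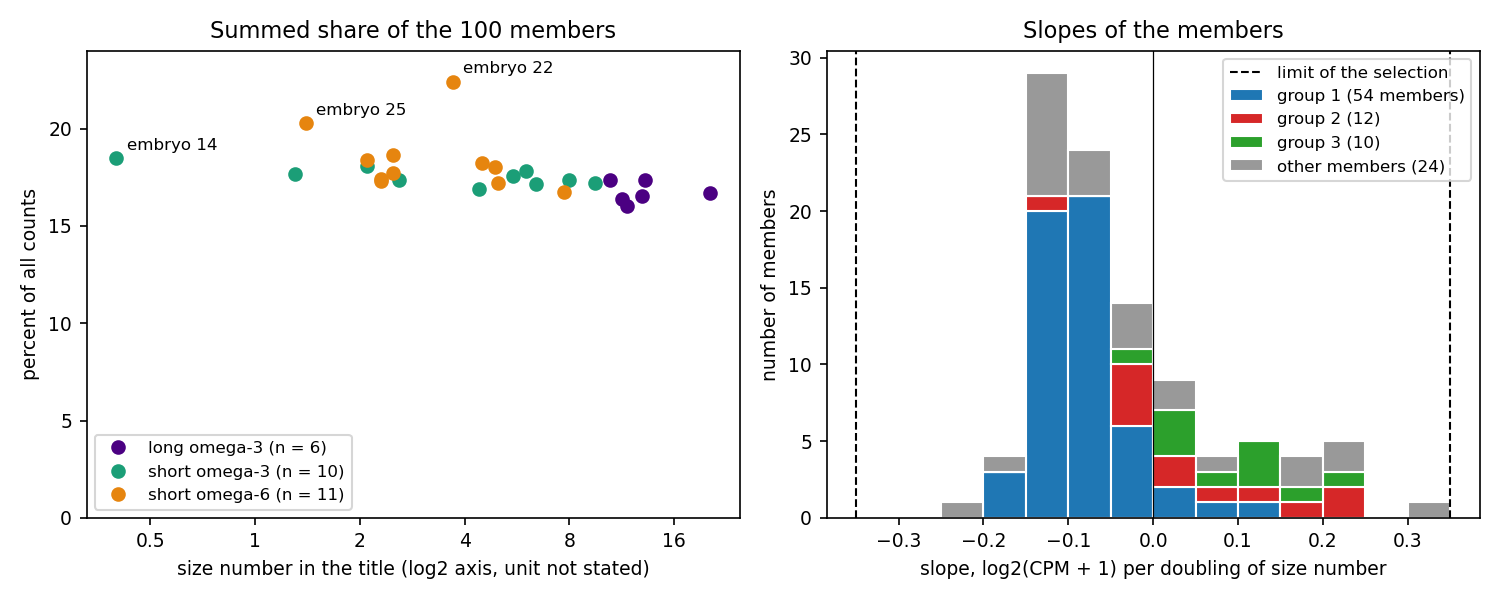
Left, the summed share of the 100 members in percent of all counts against the size number on a log2 axis, 1 point an embryo, coloured by group. Shares run from 16.05% to 22.4%, with embryos 22 and 25 highest. Right, number of members by slope of log2(CPM + 1) per doubling of the size number, stacked by co-varying group, with dashed lines at the selection limit of 0.35 on either side. Most members, and 50 of the 54 of group 1, lie below zero.

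Beyond size, many members rose and fell together from embryo to embryo, and others ran against them. To describe this, the means of the 3 groups, log2 size and the letter were removed from each member's log2(CPM + 1), and Pearson's r was taken for all 4950 pairs over 27 embryos. The values share their libraries, and shares of a fixed total push each other down, so r is given as a description with no p. It reached 0.8 in 18.4% of pairs of members, against 3.31% of the 71025321 pairs of all genes tested, and lay at -0.8 or below in 5.09% of pairs, against 1.26%. The median size of r was 0.60 among members and 0.29 among all genes. The first principal component held 61.3% of the members' remaining variance, and 38.2% over all genes tested. All genes tested include many less counted ones, which carry more counting error. No comparison with genes of like level was made here, so these contrasts are not particular to the members. Without embryos 22 and 25, r reached 0.8 in 10.1% of the members' pairs, against 0.234% over all genes, and lay at -0.8 or below in 0.263%, against 0.0444%. The median size of r was then 0.33 among members and 0.21 among all genes, and the first component held 43.2% and 21.1%.

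Average linkage of these r values, with groups taken at a mean r of 0.5, put 54 of the 100 members into 1 group, called group 1 here. Groups 2 and 3 held 12 and 10 members, and the other 24 members fell into 12 groups of at most 4. The groups are descriptions made from these values and were not tested. Group 1 took 9.20% of all counts on average, more than the 16 numbered identifiers. Pairs within it had a median r of 0.85 and a lowest r of 0.23. Members 19 (ENSBTAG00000011559) and 57 (ENSBTAG00000006487) were the closest pair, with r = 0.99. Member 19 had 1.69 to 1.99 times the CPM of member 57 over the 27 embryos, while its own level ran from 2095 to 5097 CPM. Over all pairs of group 1 the median SD of the log2 ratio of 2 members was 0.15, against a median SD of 0.25 for the level of a member. These were 0.12 and 0.16 without embryos 22 and 25. Since the group was formed by high r, this restates the choice on another scale.

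Group 1 did not rest on embryos 22 and 25 alone. Without them its median r was 0.68, and linkage repeated on the other 25 embryos gave a largest group of 43 members, of which 41 were in group 1. Linkage within the 16 omega-3 embryos also gave a largest group of 43, and 40 of these were in group 1. In the 11 omega-6 embryos, which had no part in forming that group, its 43 members had a median r of 0.96. In the omega-6 embryos left after removing 22 and 25 (n = 9) that median was 0.85, while over all pairs of members it was 0.23. The largest group formed in the 11 omega-6 embryos held 60 members, with a median r of 0.55 in the 16 omega-3 embryos, and 41 members were in both.

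Groups 2 and 3 ran against group 1. Pairs across groups 1 and 2 had a median r of -0.74, and pairs across groups 1 and 3 had -0.56. The lowest r of any pair was -0.96, between member 58 of group 2 and member 73 of group 1. The ratio of member 58 to member 73 had a median of 1.28 over the embryos and a lowest value of 0.297. Without embryos 22 and 25 the median across groups 1 and 2 was -0.43, and across groups 1 and 3 it was 0.01. Pairs within group 2 then had a median r of 0.49 and pairs within group 3 one of 0.13, so group 3 rested mainly on those 2 embryos.

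**Figure D3:**
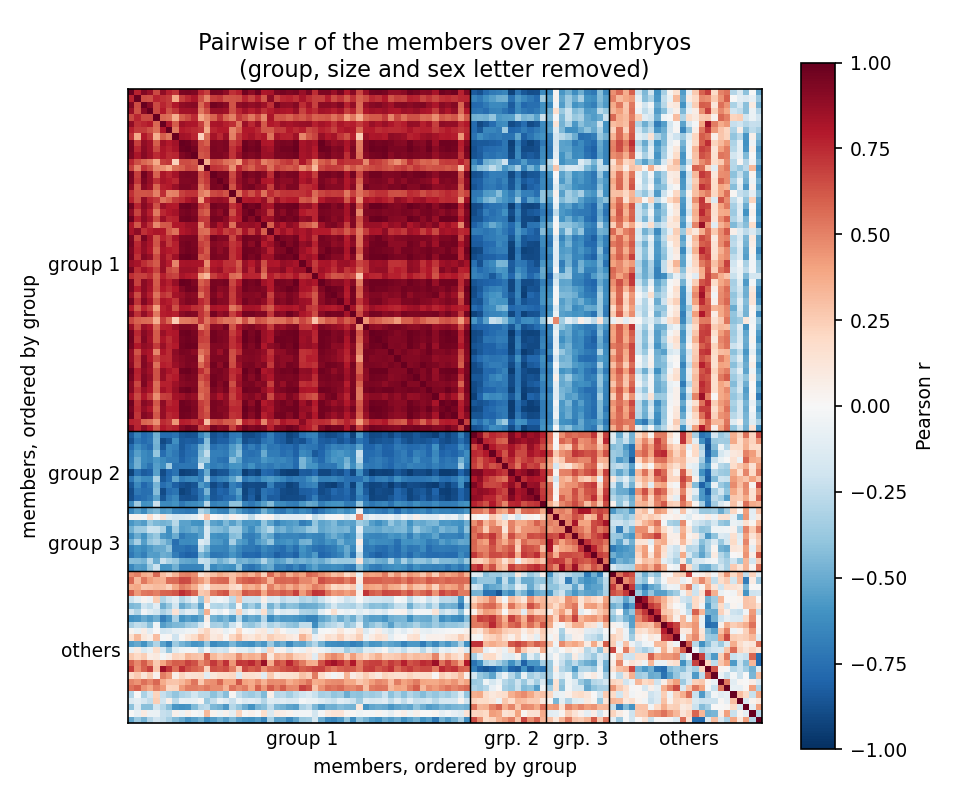
Pearson r between all pairs of the 100 members over 27 embryos, after removing group, size and letter, with members on both axes ordered by co-varying group. Red is positive and blue negative. The large red square is group 1 (median r 0.85), and the blue blocks beside it are its pairs with group 2 (median r -0.74) and group 3 (median r -0.56).

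Genes outside the selection ran with group 1 or against it. Of the 11819 tested genes that are not members, 669 (5.66%) had an r of 0.8 or more with the mean of group 1, and 149 (1.26%) did without embryos 22 and 25. An r of -0.8 or below was found in 2161 (18.3%), and in 179 (1.51%) without those embryos. The share at 0.8 or more was 21.5% of the 181 non-members with a mean of at least 500 CPM, 14.9% of the 1447 between 100 and 500 CPM, 6.66% of the 5875 between 10 and 100 CPM and 0.533% of the 4316 below 10 CPM. These shares were lower without embryos 22 and 25, at 12.2%, 4.35%, 1.07% and 0.0232%. The share at -0.8 or below was 7.73%, 20.5%, 25.3% and 8.39% in the same classes, and 0.552%, 1.17%, 2.23% and 0.695% without those embryos. The gene with the highest r, 0.99, was ENSBTAG00000001777, which is also the first gene outside the selection by mean CPM. It had r = 0.97 without embryos 22 and 25.

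Embryos 22 (m, size number 3.7) and 25 (f, size number 1.4) were the far ends of groups 1 and 2. Group 1 took 15.6% of the counts in embryo 22 and 12.6% in embryo 25, against 8.03% to 10.2% in the 9 other short omega-6 embryos. It took 7.72% to 9.02% in long omega-3 and 8.08% to 10.4% in short omega-3 embryos, where the highest value was that of the smallest embryo. All 54 members of group 1 were higher in embryo 22, and all 54 in embryo 25, than the mean of those 9 embryos, by a median of 0.79 and 0.52 log2 units. Group 2 took 1.07% in embryo 22 and 1.44% in embryo 25, against 1.998% to 2.79% in the 9 others. By CPM all 12 of its members were lower in both embryos. In embryo 25 members 20 and 24 were so by only -0.06 and -0.07 log2 units. In group 3 embryo 22 was lowest, with 1.201% of the counts. By this summed share embryo 25, at 1.94%, lay within the 1.90% to 2.48% of the 9 others. By single members embryo 25 was mostly lower. Of the 10 members of group 3, 5 lay below all 9 others there, and 3 were higher than the mean of the 9. The median difference from that mean was -0.29 log2 units in embryo 25 and -0.66 in embryo 22. Of all 100 members, 67 were higher in embryo 22 and 68 in embryo 25 than the mean of the 9. The groups were formed from r values that include these 2 embryos. A shared direction within a group therefore restates that choice in part. These 2 embryos were singled out by their values, so no test was made.

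Single members moved further. Member 37 (ENSBTAG00000018320), of group 1, had 4090 CPM in embryo 22 and 2977 CPM in embryo 25, against 1445 to 1966 CPM in the 9 others. Member 50 had 3125 and 2380 CPM in embryos 22 and 25, against 1230 to 1602 CPM. Both embryos lay above all 9 in each of these members. Of group 2, member 8 (ENSBTAG00000004555) had 839 and 1012 CPM in embryos 22 and 25, against 2341 to 6196 CPM in the 9 others. Member 91 had 284 and 323 CPM, against 732 to 1390 CPM. Of the 100 members, 55 had their highest level of all 27 embryos in embryo 22 and 21 had their lowest there.

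Other measures stood apart in the same embryos, and their part in these levels was not tested. Genes at 1 CPM or more numbered 10147 in embryo 22, the fewest of all, and 10486 in embryo 25, against a median of 10658. Their totals of 24905064 and 26654396 counts lay within the range of the others. The scaling factor of the trimmed mean of M-values (TMM), used in the tests, was 0.773 in embryo 22 and 0.888 in embryo 25, against 0.964 to 1.09 in the other 25 embryos. Levels after this scaling are therefore higher in these 2 embryos than the CPM given here.

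**Figure D4:**
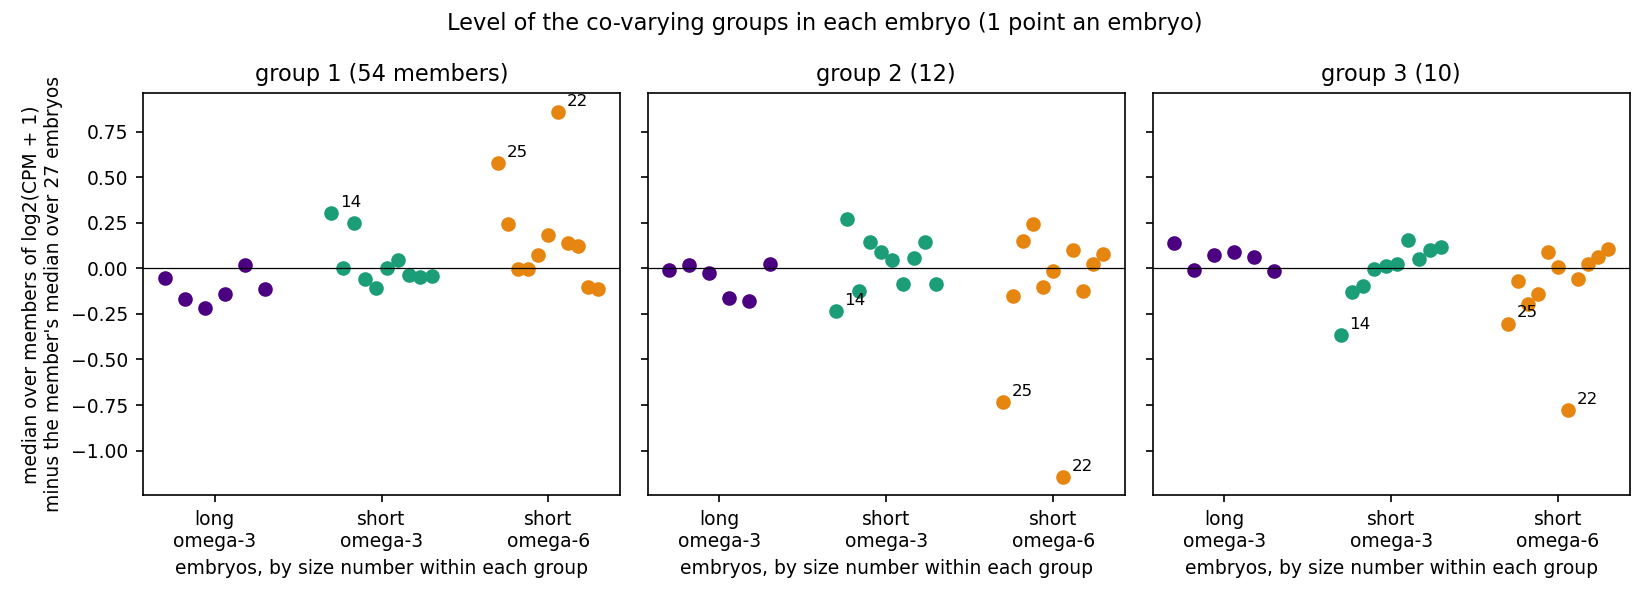
Level of the 3 co-varying groups in each embryo, as the median over a group's members of log2(CPM + 1) minus the member's own median over 27 embryos. Points are single embryos, ordered by size number within the long omega-3 embryos, then the short ones of omega-3 and of omega-6. Embryo 22 lies at 0.86 in group 1 and -1.15 in group 2, and embryo 25 at 0.58 and -0.73, outside all other embryos in both groups.

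Diet was tested among short embryos, the size class both diets share, with edgeR's quasi-likelihood test on all genes. No member passed at an adjusted p below 0.05, and no gene at all did (0% of 11919). Most members measured lower in short omega-3 than in short omega-6 embryos, 78 against 22 higher, with a median log2 difference of -0.21 over the members and 0.01 over all genes tested. At an unadjusted p below 0.05, 37 members were lower and 0 higher in short omega-3, beside 6.8% and 2.09% of all genes. DESeq2 and limma-voom also called 0 members. At an unadjusted p below 0.05 DESeq2 had 45 members, all lower, beside 1236 of 11919 genes. At that limit limma-voom had 31, 29 lower and 2 higher, beside 2131 of 11919 genes. In limma-voom the median difference over the members was -0.10, and over all genes 1136 were higher and 995 lower at an unadjusted p below 0.05, against 249 and 810 in edgeR. All 54 members of group 1 had a negative difference, with a median of -0.29, while 10 of 12 in group 2 had a positive one. Since members of a group move together, these counts are not independent results.

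The size of these differences, though not the tally of signs over all members, rested on embryos 22 and 25, both short omega-6. Without them 77 members measured lower and 23 higher in short omega-3, and 50 of the 54 in group 1 were lower. In group 2 the tally did not hold, with 5 of 12 higher and 7 lower. The median difference over the members was then -0.04, and 0 members reached an unadjusted p below 0.05, beside 2.12% of all genes. The smallest p among the members belonged to member 92 (ENSBTAG00000010156). It had 833 to 1387 CPM in short omega-3 and 951 to 1430 CPM in short omega-6 embryos, with a log2 difference of -0.28 ± 0.11 (SE, edgeR adjusted p = 0.527). The groups overlapped over most of their range. Upward it was member 44 (ENSBTAG00000004556), with 1256 to 2054 CPM in short omega-3 and 590 to 1743 CPM in short omega-6 embryos and a difference of 0.18 ± 0.11 (SE, edgeR adjusted p = 0.536). The lowest omega-6 value of member 44 was that of embryo 22.

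The intervals show what size of difference these embryos allow. The 95% interval of the diet difference lay within 2-fold either way for all 100 members, and within 1.5-fold for 69. Over all genes tested these shares were 91.6% and 66.7%.

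With size held equal over all 27 embryos, edgeR again called 0 members and 0% of 11919 genes, as did DESeq2 and limma-voom. Size was held equal by a slope common to both diets. No omega-6 embryo had a size number above 7.7, so beyond that number the comparison rests on this slope. Of the members, 82 measured lower in omega-3 embryos, with a median log2 difference of -0.20, against 0.004 over all genes. At an unadjusted p below 0.05 there were 43 lower and 1 higher, beside 8.55% and 3.32% of all genes. Without embryos 22 and 25 there were 0, beside 4.44% of all genes, and the median was -0.05, while 84 members measured lower and 16 higher. In limma-voom the median over all 27 embryos was -0.08. In edgeR without the smallest embryo, 14 members were lower and 0 higher at an unadjusted p below 0.05. Of the 11878 genes tested there, 386 were lower and 188 higher at that limit. By sign alone, 78 members measured lower and 22 higher. Member 48 (ENSBTAG00000015989) had the smallest p. It had 1108 to 1377 CPM in long omega-3, 1283 to 1670 CPM in short omega-3 and 1256 to 2898 CPM in short omega-6 embryos, with a difference of -0.36 ± 0.14 (SE, edgeR adjusted p = 0.414). The highest value was that of embryo 22. The 1 member higher at an unadjusted p below 0.05 over all 27 embryos was 44, with a difference of 0.26 ± 0.11 (SE, edgeR adjusted p = 0.414).

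Whether the shallow slopes differed between diets was tested in the 21 short embryos. edgeR called 0 members and 0% of 11534 genes, and 0 members reached an unadjusted p below 0.05, beside 4.38% of all genes. DESeq2 and limma-voom also called 0 members, beside 0.00867% of all genes each. The slope was higher in omega-3 than in omega-6 embryos in 81 members, with a median difference of 0.08 per doubling, against 0.003 over all genes. Without embryos 22 and 25 it was 58 members, with a median difference of 0.01. The largest lean by p was that of member 61, whose slope was 0.22 ± 0.12 (SE) higher in omega-3 embryos (edgeR adjusted p = 0.84). The 95% interval lay within 2-fold per doubling either way for all 100 members.

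The letter gave the clearest single difference among the members. Over all genes, edgeR called 46 between m and f (0.386% of 11919), and 0 of them were members. At an unadjusted p below 0.05 no member was higher in m and 2 were lower, beside 2.1% and 2.28% of all genes. DESeq2 and limma-voom called 1 member each, beside 0.654% and 1.06% of all genes, and it was member 35 (ENSBTAG00000007454) in both.

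Member 35 had 1159 to 2397 CPM in m embryos (median 1307) and 1229 to 3477 CPM in f embryos (median 2164). The lowest f embryo was 07, the one that went against its letter, and the highest m embryo was 22. Without embryo 07 the f embryos ran from 1787 CPM upward, and the next highest m embryo after 22 had 1574 CPM. The difference was -0.52 ± 0.13 log2 units (SE) and missed the threshold over all embryos (edgeR adjusted p = 0.0703). It passed without embryo 07 (-0.57 ± 0.13, SE, edgeR adjusted p = 0.0327) and without embryos 22 and 25 (-0.58 ± 0.07, SE, edgeR adjusted p = 2.43e-05). The number of genes called without embryo 07 was 0.591% of those tested, and without embryos 22 and 25 it was 0.725%.

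The difference in member 35 was found within each group. Among long omega-3 embryos it had 1159 to 1266 CPM in 4 m embryos and 1832 CPM in the f embryo other than 07. Among short omega-3 embryos it had 1275 to 1574 CPM in 6 m embryos and 1866 to 2267 CPM in 4 f embryos. Among short omega-6 embryos it had 1182 to 2397 CPM in 5 m embryos and 1787 to 3477 CPM in 6 f embryos. In both omega-3 groups the letters did not overlap apart from embryo 07, and in short omega-6 they overlapped through embryo 22.

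Member 35 belongs to group 1, so its level also moved with that group. Divided by the geometric mean of the other 53 members of group 1, it was 0.853 to 1.02 in m embryos and 1.30 to 1.61 in f embryos other than 07. Embryo 07 had 0.801. On this ratio embryo 22, at 0.885, lay among the m embryos, and the letters did not overlap apart from embryo 07. The ratio was chosen after the values were seen and was not tested.

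**Figure D5:**
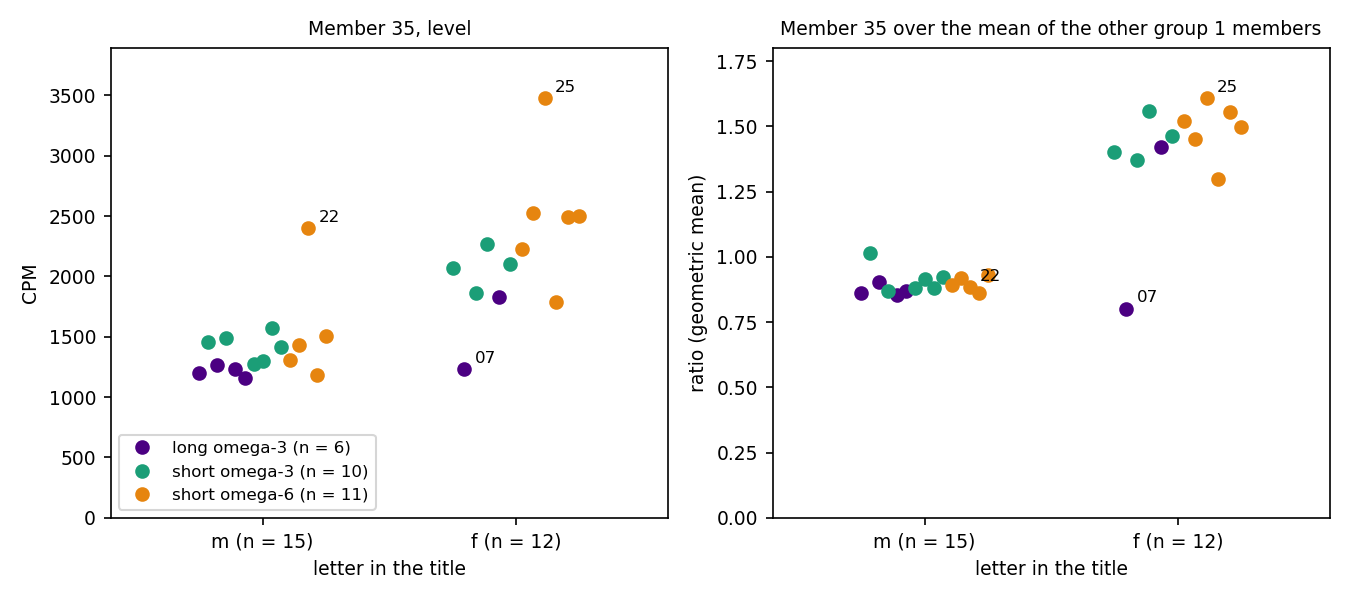
Member 35 in m (n = 15) and f (n = 12) embryos, coloured by group. Left, its level in CPM, with embryo 22 the highest m embryo (2397 CPM) and embryo 07 the lowest f embryo (1229 CPM). Right, its ratio to the geometric mean of the other 53 members of group 1, which runs from 0.853 to 1.02 in m embryos and from 1.30 to 1.61 in f embryos other than 07.

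No other member passed in edgeR, DESeq2 or limma-voom. Member 100 was the next by edgeR's p, with 565 to 1154 CPM in m embryos (median 887) and 835 to 1286 CPM in f embryos (median 1063). Its difference was -0.18 ± 0.08 (SE), with an edgeR p of 0.036 before adjustment, and it missed the threshold after it. The 95% interval lay within 1.5-fold either way for 98 of the 100 members, beside 80.3% of all genes tested.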

How the data were processed

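Per the labels' protocols, libraries of single embryos were made with a stranded kit for messenger RNA and read as single reads of 100 bp. STAR and featureCounts are named in the submitters' processing notes. Their versions, the genome build, the annotation and the strand setting were not given in the sources used. The authors' deposited values are whole-number read counts for the same 19994 Ensembl identifiers in each of 27 files, not normalised. Reads shared by near-identical gene copies could be split between members, which leaves such members uncertain.

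Descriptions used CPM by file total and log2(CPM + 1). Tests used edgeR 4.0.16 in R 4.3.3 on the counts: filterByExpr (minimum count 10, minimum total 15, minimum proportion 0.7), TMM scaling and the two-sided quasi-likelihood F-test, with Benjamini-Hochberg adjustment over all genes tested and calls at an adjusted p below 0.05. Diet among short embryos and the letter came from a model of group and letter. Diet at equal size came from diet, log2 size and letter, and the slope difference from their interaction in 21 short embryos. SE is the size of the log2 difference over the square root of F. Alternatives used DESeq2 1.42.0, limma 3.58.1 (voom with sample quality weights), other scaling, no filter, and fewer embryos. On simulated counts with known changes, the test was checked first.

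Members named in the text were those at the ends of each measure: highest and lowest level, slope, residual SD, r and departure of embryos 22 and 25, and the smallest p in each direction. The members, the comparisons and the alternatives were chosen with earlier results of these data known. Reading the co-varying groups of one diet in the other, the ratio of a member to its group and the slopes within each diet were chosen after seeing the data. Gene lists by symbol could not be used, because no identifier was matched to a name.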

Additional observations from a re-analysis of the deposited data

Results flagged for a closer look

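In groups of 6 long omega-3 and 10 short omega-3 embryos, 1 embryo lay far from the rest of its group in 3 of the 62 sets of values examined, where chance gives about 1 in 20. Member 5 had 2455 CPM in embryo 14, the smallest short omega-3 embryo, and at least 3570 CPM in the others of that group. Member 35 had 1832 CPM in embryo 16, against at most 1266 CPM in the other long omega-3 embryos; embryo 16 is 1 of 2 lettered f in that group, and the other is embryo 07. Member 44 had 2054 CPM in embryo 11, against at most 1666 CPM in the other short omega-3 embryos.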

How the results depend on the processing

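No paired analysis was possible because embryo numbers in the titles do not repeat across groups. The number of members called stayed 0 for both diet comparisons and for the slope difference under every alternative run. For m against f it was 1, member 35, with DESeq2, with limma-voom, without embryos 22 and 25 and without embryo 07, and 0 under the other settings. Over all genes, m against f gave 78 calls with DESeq2, 126 with limma-voom, 86 without embryos 22 and 25 and 71 without embryo 07, against 46. Diet among short embryos gave 1 call in place of 0 without the filter and without embryo 07. The slope difference gave 1 in place of 0 without the filter, with DESeq2 and with limma-voom. The median share over embryos, and the median slope and median spread of the members, moved by less than the spread between embryos or members under each alternative tried. The median r of the members was 0.18 and rose to 0.48 after TMM scaling. Pairs at an r of 0.8 or more rose from 18.4% to 29.1% with it. Within group 1 the median r rose from 0.85 to 0.93 with TMM scaling. It fell from 0.76 to 0.57 within group 2 and from 0.61 to 0.34 within group 3. The median r over all members was 0.19 without the smallest embryo, 0.15 without embryos 22 and 25, and 0.13 as Spearman's rho. The largest co-varying group held 43 to 72 members. With members chosen and measured after TMM scaling, their highest sum in any embryo was 29.2% on the scaled CPM, against 22.4% by file total. Scaled CPM do not add up to the library total, so the 29.2% is not a share of counts. Members at an unadjusted p below 0.05 for diet among short embryos numbered 37 in the main fit, beside 1059 of 11919 genes. They numbered 18 with the compared groups only, beside 687 of 11534 genes, and 14 with size added, beside 814 of 11534. For diet at equal size they numbered 44 in the main fit, beside 1415 of 11919 genes. With limma-voom they numbered 7, beside 920 of 11919 genes. The cause was not tested. Each group holds 6 or more embryos, so only embryos 07, 14, and 22 with 25 were left out.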
